A study of Mus musculus with 47 samples.

Results

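The 8 genes Acod1, Cs, Idh1, Idh2, Idh3a, Ogdh, Acly and Slc25a1 were followed through 12 RNA-seq libraries of mouse macrophages. They were chosen by symbol, for their place in itaconate synthesis, the citrate cycle and citrate export, and each of the 8 was found among 51912 genes in the tables of bone-marrow-derived macrophages (BMDMs) and among 27567 gene names in the tables of Raw264.7 cells, a mouse macrophage line. The study asked how ZMYND8, a chromatin reader, restrains inflammatory genes in macrophages. WT BMDMs came from C57BL/6 mice with Zmynd8 fl/fl alleles and no Cre, and Zmynd8 cKO BMDMs from Zmynd8 fl/fl mice carrying Lyz2-Cre, which is active in macrophages and neutrophils and removes exons 6 and 7. Both genotypes were grown in M-CSF at 20 ng/ml and left untreated (NT, labelled M0), or given LPS at 100 ng/ml (M1) or IL-4 at 20 ng/ml (M2) for 6 h. The Raw264.7 lines were Zmynd8 KO cells, these cells with WT Zmynd8 or with the D/E-to-A mutant put back, and LPS-treated p65 KO cells, alone or with WT p65 or the p65 K122R mutant put back. All 6 lines were made by lentiviral gRNA editing, and while the labels give no treatment for the 3 Zmynd8 lines, the paper describes RNA-seq of the WT Zmynd8 and D/E-to-A lines as done under LPS.

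Each condition has 1 library. Each BMDM library is a mix of 3 biological replicates, whose spread is not seen. Every interval below therefore covers the counting error of reads between 2 libraries only, at a level of 95%, and no difference has a replicate check. The BMDM libraries held 22597408 to 28386612 estimated counts and the Raw264.7 libraries 15127110 to 21042507 reads.

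The citrate cycle oxidises acetyl-CoA in the mitochondrion. CS joins acetyl-CoA to oxaloacetate to make citrate, aconitase turns citrate into isocitrate by way of cis-aconitate, IDH3 carries isocitrate to 2-oxoglutarate with NAD, and the OGDH complex carries that to succinyl-CoA. IDH2 in mitochondria and IDH1 in the cytosol catalyse the isocitrate step with NADP. SLC25A1 carries citrate out of mitochondria and ACLY cleaves it in the cytosol to acetyl-CoA for lipid synthesis and protein acetylation. ACOD1, also called IRG1, decarboxylates cis-aconitate to itaconate and is known as a gene strongly induced by LPS in macrophages. Measured here is RNA, not enzyme activity or metabolite.

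On the mm10 build the deposited tables place Acod1 at chr14:103047012-103056573, Cs at chr10:128337832-128362479, Idh1 at chr1:65158616-65186479, Idh2 at chr7:80094846-80115840, Idh3a at chr9:54586511-54604662, Ogdh at chr11:6291597-6359094, Acly at chr11:100476352-100528000 and Slc25a1 at chr16:17925211-17928219. All are protein-coding, and in GENCODE vM21 no exon of another gene overlaps theirs. Cs has a near copy, Csl, whose transcript matches it at 91.9% over 1522 bases, and a pseudogene, Gm48254, matches at 92.1% over 469 bases. Csl held 0 to 2 counts in the BMDM libraries, and how reads shared between the copies were divided is not given in the sources used here.

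The promoters of 3 genes are shown because their RNA went in 3 directions under LPS in the WT libraries: Acod1 was higher, Idh2 lower and Slc25a1 within the threshold. The sequences are from RefSeq on GRCm38.p6 and run from 250 bases before the start site to 50 bases after it, on the gene's own strand. Acod1 lies on the plus strand (chr14:103046762-103047061), Idh2 on the minus strand (chr7:80115301-80115600) and Slc25a1 on the minus strand (chr16:17928170-17928469). Capitals mark matches to GGGNNNNNCC on either strand, the letters of a binding site of NF-κB, the family of p65.
Acod1: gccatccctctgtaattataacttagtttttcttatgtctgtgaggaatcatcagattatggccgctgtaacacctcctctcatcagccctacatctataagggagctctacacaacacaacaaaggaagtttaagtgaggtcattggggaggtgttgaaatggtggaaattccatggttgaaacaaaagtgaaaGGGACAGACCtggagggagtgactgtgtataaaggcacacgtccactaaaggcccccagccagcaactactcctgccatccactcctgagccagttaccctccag
Idh2: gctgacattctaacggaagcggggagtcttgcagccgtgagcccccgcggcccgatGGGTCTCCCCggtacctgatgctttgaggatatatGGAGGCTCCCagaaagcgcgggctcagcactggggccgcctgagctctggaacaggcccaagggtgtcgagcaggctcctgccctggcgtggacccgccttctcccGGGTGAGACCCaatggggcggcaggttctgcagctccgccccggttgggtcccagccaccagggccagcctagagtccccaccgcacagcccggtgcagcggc
Slc25a1: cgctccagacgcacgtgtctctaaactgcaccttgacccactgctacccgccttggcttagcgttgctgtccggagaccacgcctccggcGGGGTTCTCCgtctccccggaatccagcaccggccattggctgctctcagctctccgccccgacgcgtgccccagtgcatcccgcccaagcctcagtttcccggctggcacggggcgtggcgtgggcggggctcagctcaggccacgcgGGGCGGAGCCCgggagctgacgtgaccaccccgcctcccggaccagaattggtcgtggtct
The Acod1 promoter holds 1 match, the Idh2 promoter 4 and the Slc25a1 promoter 3. Neighbouring matches overlap in the Idh2 and Slc25a1 promoters. A match was found for 7 of the 7 genes that have an entry in the promoter table, and in 8 of their 13 promoters, and 51.0% of all 32544 promoters hold one, so the letters do not set these genes apart. The letters TTCNNNGAA, of a STAT site, were in 0 of the 13 and in 8.33% of all promoters. The G and C content was 47% for Acod1, 68.3% for Idh2 and 69.3% for Slc25a1, against a median of 53% over all promoters. Idh3a has no promoter shown.

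Several measurements bear on the labels. Zmynd8 itself stood at 87.1, 79.0 and 128 CPM (counts scaled to a library total of 1000000) in the WT libraries and at 81.5, 86.8 and 151 CPM in the cKO libraries under NT, LPS and IL-4. A count over the whole gene does not separate the 2 deleted exons from the others, so this does not check the deletion. All 8 macrophage markers had 10 or more counts in each BMDM library. Lyz2, the gene whose locus carries the Cre, ran lower in cKO than in WT under every treatment (7202 against 10951 CPM in NT). The 9 neutrophil markers (Ly6g, Camp, Ltf, Ngp, S100a8, S100a9, Elane, Mpo and Retnlg) summed to 2.37 to 4.22 CPM in the 4 NT and LPS libraries, with 2 to 5 of them at 0, but to 383 CPM in the WT and 515 CPM in the cKO library under IL-4, with 0 at 0. B cell, T cell and fibroblast markers each summed to at most 2.01 CPM in BMDMs. In each IL-4 library 1 of the 9 neutrophil markers was under 10 counts, Ly6g, with 3 and 2. Among Raw264.7 libraries, Rela, which encodes p65, was read 1601 times with WT p65, 5850 times with K122R and 765 times in p65 KO. The 3 Zmynd8 lines carried 7109 to 8467 reads of Xist, which a male line such as Raw264.7 should lack, and 4439 to 10423 RPM (reads scaled by the library total in the same way) of the 9 neutrophil markers, each with 10 or more reads. The 3 p65 lines carried 0 to 3 Xist reads and, over the 3 of 9 neutrophil markers that their tables list, 0.18 to 0.319 RPM. The 4 B cell markers summed to 102 to 147 RPM in the Zmynd8 lines and, over the 3 listed, to 5.42 to 8.17 RPM in the p65 lines. In the Zmynd8 KO library 23771 deposited values are whole numbers of reads and 1 is not. That 1 is the value of Zmynd8, so the knockout cannot be checked by it. The Zmynd8 lines are therefore named by their labels only.

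Acod1 changed more than any other of the 8 genes under both treatments. Its level in untreated cells was 56.3 CPM in WT and 27.9 CPM in cKO. LPS brought it to 4447 CPM in WT and 5427 CPM in cKO. IL-4 brought it to 260.2 CPM in WT and 1166 CPM in cKO. The 2 LPS libraries stood highest, the 2 IL-4 libraries between, and the 2 NT libraries lowest, and the cKO library lay below WT in NT and above it under both treatments. On the per-length scale of TPM, which divides by transcript length, Acod1 ranked 3560th of all genes in untreated WT cells and 50th under LPS. In cKO cells it went from rank 5551 to rank 34. Its rank under IL-4 was 917 in WT and 238 in cKO.

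**Figure D1:**
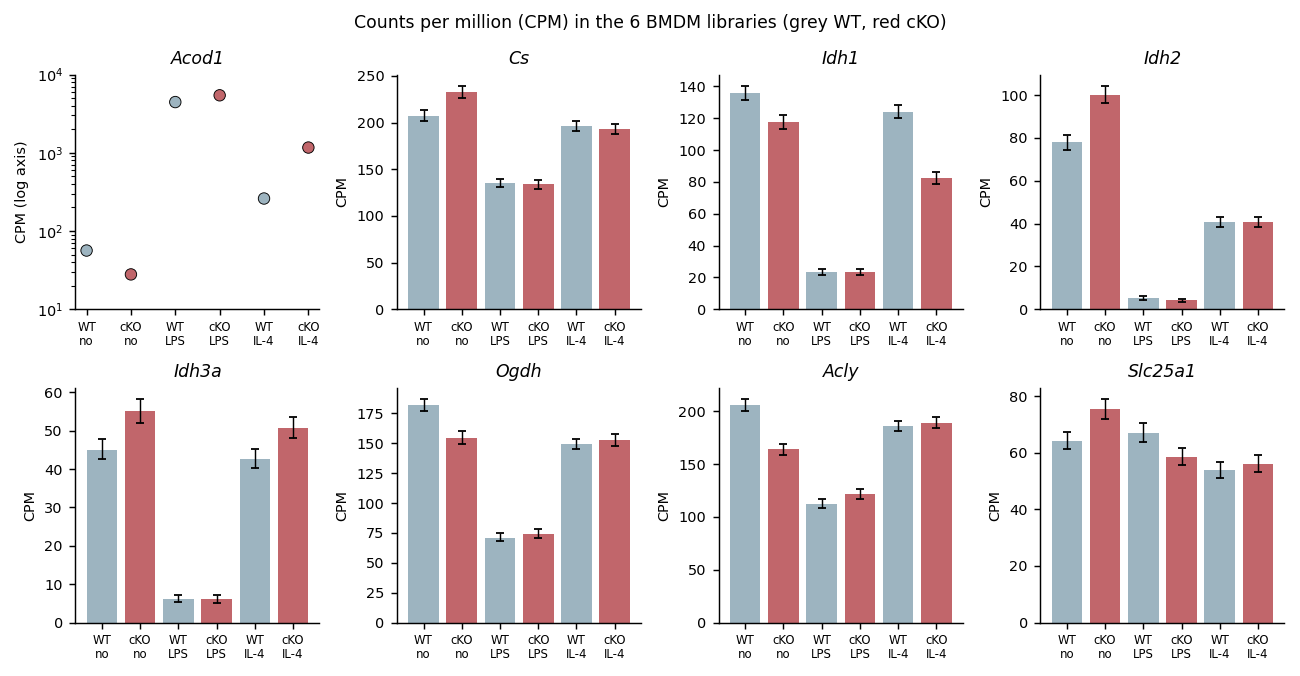
Level of each gene in CPM (y axis, from 0 except for Acod1, which has a log axis) in the 6 BMDM libraries (x axis; "no" is untreated), with 95% Poisson limits that cover counting error only. Acod1 ran from 27.9 to 5427 CPM, Idh2 and Idh3a lay at 4.10 to 6.18 CPM in both LPS libraries, and Slc25a1 stayed between 53.8 and 75.3 CPM.

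Under LPS the WT library had 79.0-fold more Acod1 than the untreated one (limits 75.1 to 83.2), and most of the cycle enzymes were lower. A gene is called here when its level, with 1 CPM added, differs at least 1.2-fold between 2 libraries and an exact binomial test of its reads passes an adjusted p of 0.05, which compares the libraries and not the conditions. By that rule 1 of the 8 genes was higher and 6 were lower, where 20.6% of all 12813 genes tested were called higher and 61.1% lower. The LPS and NT libraries are deposited in separate tables of estimated counts. The median of the 8 log2 fold changes was -1.10, and that of all genes was -0.58. When libraries were scaled to each other by the median ratio of their genes or by TMM, a trimmed mean of log ratios, the median of all genes moved to -0.07 and -0.10, and the share of calls that were higher went from 25.2% to 46.4% and 45.2%. Changes are therefore read below against the median of all genes.

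Idh2, the mitochondrial NADP enzyme, fell most. It stood at 77.9 CPM in untreated WT cells and 5.02 CPM under LPS, which is 15.5-fold lower (13.0 to 18.7), and 0.593% of genes had a lower fold change. In cKO cells it went from 100.1 to 4.10 CPM, or 24.4-fold lower (19.9 to 30.3). Both LPS libraries lay far below the 4 others.

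Idh3a, the catalytic subunit of the NAD-dependent enzyme, went from 45.1 to 6.18 CPM in WT, 7.29-fold lower (6.16 to 8.68). In cKO it went from 55.1 to 6.15 CPM, 8.97-fold lower (7.54 to 10.7). Idh1, the cytosolic NADP enzyme, went from 135.9 to 23.5 CPM in WT, 5.79-fold lower (5.30 to 6.32), and from 117.4 to 23.4 CPM in cKO, 5.02-fold lower (4.58 to 5.51). These 3 isocitrate dehydrogenase genes were called lower under all scalings tried, and their 2 LPS values lay within 1 CPM of each other for WT and cKO.

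Ogdh was 2.56-fold lower under LPS in WT (2.42 to 2.70), at 181.8 and 71.2 CPM, and 2.08-fold lower in cKO (1.96 to 2.20), also under every scaling. The genes that make and use citrate moved less. Acly went from 206.1 to 112.7 CPM in WT, 1.83-fold lower (1.75 to 1.91), and Cs from 207.4 to 135.4 CPM, 1.53-fold lower (1.47 to 1.60). The log2 fold change of Cs, -0.61, is close to the median of all genes, and with median ratio scaling it became -0.01 and was not called. Acly also lost its call with that scaling, at -0.26, but kept it with TMM. Slc25a1 had 64.2 CPM in NT and 67.1 CPM under LPS in WT, a ratio of 1.05 (0.977 to 1.12) that was not called. With median ratio scaling its log2 fold change was 0.66 and it was called higher.

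In the cKO libraries all 8 genes were called under LPS, 1 higher and 7 lower, beside 23.8% of 12666 genes called higher and 58.9% lower. Acod1 was 195-fold higher (180.0 to 211). With median ratio or TMM scaling 5 of the 8 were called, 1 higher and 4 lower, and the share of all calls that were higher went from 28.8% to 47.8%. Cs, Acly and Slc25a1 lost their call there, and the sign of Acly and Slc25a1 turned.

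**Figure D2:**
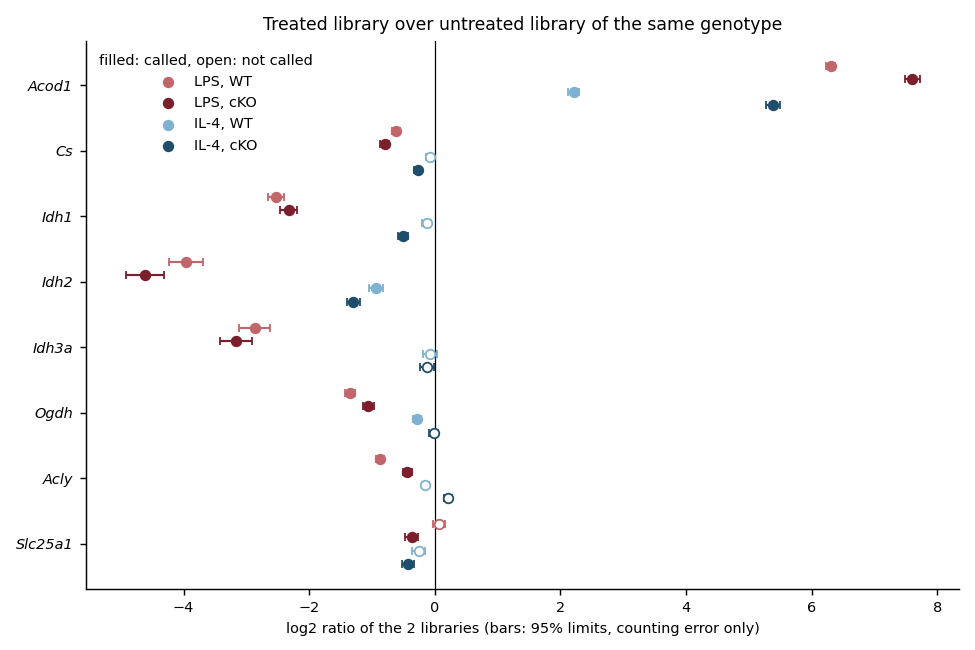
Log2 ratio of the treated to the untreated library of the same genotype (x axis) for the 8 genes (y axis), with 95% limits for counting error; filled points were called and open points were not. Acod1 lies far to the right in all 4 comparisons (4.62-fold for IL-4 in WT to 195-fold for LPS in cKO), and Idh2 lies furthest to the left under LPS in both genotypes.

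The order of the 8 genes by TPM was thereby turned over. In untreated WT cells Cs led with 108 TPM, followed by Idh1 with 94.03, Idh2 with 74.1, Acly with 70.0, Ogdh with 66.4, Slc25a1 with 64.3, Acod1 with 32.3 and Idh3a with 30.0 TPM. Acod1 made up 5.99% of their summed TPM. Under LPS Acod1 stood at 2483 TPM, followed by Cs with 67.1, Slc25a1 with 66.2, Acly with 36.7, Ogdh with 24.7, Idh1 with 15.7, Idh3a with 4.62 and Idh2 with 4.53 TPM. Acod1 then made up 91.9% of the sum in WT and 93.4% in cKO. The ratio of Acod1 to Idh3a on the TPM scale went from 1.08 to 537 in WT and from 0.429 to 722 in cKO. With 1 library a condition no spread says which neighbours in these orders differ, and Cs and Slc25a1 under LPS and Idh3a and Idh2 under LPS are closest.

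Most other genes of the cycle were also lower under LPS. Of 16 further citrate cycle genes, 0 were called higher and 15 lower in WT, beside 61.1% of all genes lower, with a median log2 fold change of -0.95 against -0.58 over all genes. With median ratio or TMM scaling 2 were higher and 12 lower, where 4454 and 4338 of all 12813 genes were higher and 5136 and 5256 lower. In cKO 0 were higher and 16 lower, beside 58.9% of all genes lower (median -1.22, all genes -0.55). There 10 were lower with median ratio and 12 with TMM scaling, where 5114 and 5193 of all 12666 genes were lower. Suclg2, a subunit of succinyl-CoA synthetase, went from 25.9 to 2.53 CPM in WT, a log2 fold change of -2.93. The cytosolic aconitase Aco1 had a log2 fold change of -2.15 and fumarase, Fh1, one of -2.05. Sdhd, a membrane subunit of succinate dehydrogenase, was not called, at 88.6 and 75.1 CPM. Succinate dehydrogenase is the enzyme that itaconate is known to inhibit, and its catalytic subunit Sdha went from 227.5 to 119.8 CPM. Sdhd and Sdha are named here after their values were seen.

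**Figure D3:**
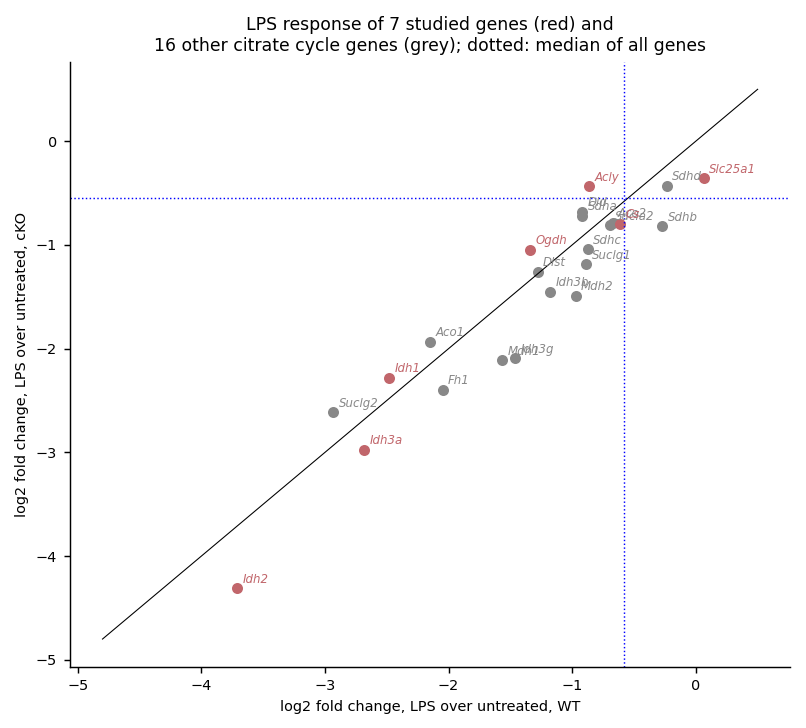
Log2 fold change of LPS over untreated in WT (x axis) and in cKO BMDMs (y axis) for 7 of the studied genes (red, without Acod1) and 16 other citrate cycle genes (grey), with 1 library a condition; the line marks equal values and the dotted lines the median of all genes, -0.58 and -0.55. Idh2 is lowest on both axes, Idh3a and Suclg2 follow, and Cs, Acly and Slc25a1 lie near or above the dotted lines.

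Genes of routes into and out of the cycle are set beside the same background, 20.6% of all genes called higher and 61.1% lower. Of 11 tested genes of pyruvate entry, 1 was called higher and 7 lower in WT under LPS. Pdk3, a kinase that switches off pyruvate dehydrogenase, was 4.06-fold higher (3.53 to 4.69), and Pdha1, a subunit of that enzyme, had a log2 fold change of -1.72. Of 11 carriers and genes of glutamate entry, 2 were higher and 8 lower. Slc25a12, the aspartate-glutamate carrier, was 3.28-fold higher (3.08 to 3.49), and the mitochondrial dicarboxylate carrier Slc25a10 was 1.93-fold higher (1.78 to 2.10). Slc1a5, a glutamine transporter, had a log2 fold change of -3.41. Among 6 genes that use acetyl-CoA, the product of ACLY, 2 were higher and 3 lower, and fatty acid synthase, Fasn, went from 82.1 to 5.26 CPM. Among 6 genes of itaconate breakdown and transport, 3 were higher and 3 lower in WT, and 2 higher and 3 lower in cKO. Those higher in WT were Slc13a3, a dicarboxylate transporter (3.74-fold, 3.07 to 4.58), Clybl, which splits citramalyl-CoA (2.88-fold, 2.32 to 3.59), and Auh, a hydratase (1.49-fold, 1.27 to 1.76). Suclg1 and Suclg2 stand in this list and in the citrate cycle list. With median ratio scaling these counts became 3 higher and 4 lower for pyruvate entry, 3 and 6 for carriers, 3 and 3 for acetyl-CoA use, and 3 and 3 for itaconate breakdown. Of all 12813 genes 4454 were then higher and 5136 lower.

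Under IL-4 Acod1 was again higher, and Idh2 lower. The WT library held 4.62-fold more Acod1 than NT (4.37 to 4.89) and the cKO library 41.8-fold more (38.7 to 45.3). In WT 1 of the 8 genes was called higher and 2 lower, where 38.6% of 13090 genes were called higher and 21.7% lower. In cKO 1 was higher and 4 lower, where 42.2% of 12966 genes were called higher and 24.8% lower. All genes had their median at 0.15 in WT and 0.17 in cKO. The share of calls that were higher went from 64.1% to 49.5% with median ratio scaling in WT, where 6 of the 8 genes were then called, 1 higher and 5 lower. In cKO that share went from 62.97% to 50.3%, and to 76.6% on TPM.

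Idh2 was 1.91-fold lower under IL-4 in WT (1.78 to 2.06), at 40.7 CPM, and 2.46-fold lower in cKO (2.29 to 2.65), also at 40.7 CPM. Ogdh was 1.22-fold lower in WT (1.17 to 1.27), but was not called on the TPM scale. Cs, Idh1 and Slc25a1 were called lower in cKO by 1.21-fold to 1.42-fold, and none of these 3 was called on TPM. On TPM the 8 genes split into 2 higher and 1 lower in cKO, as Acly, at 47.4 TPM in NT and 65.4 TPM under IL-4, was then past 1.2-fold higher. The summed neutrophil markers were 383 and 515 CPM in these IL-4 libraries against 2.37 to 2.39 CPM in NT, and the 5 dendritic cell markers summed to 247.3 and 214.9 CPM against 51.4 and 68.5 CPM. Their part in the Acod1 values was not tested. Arg1, a gene that IL-4 induces, stood at 1500.4 and 1541 CPM under IL-4 and below 1 CPM in NT. Nos2, which LPS induces, stood at 1.23 and 7.16 CPM under IL-4 and at 7472 and 7391 CPM under LPS. These 2 belong to a list of 9 genes that LPS or IL-4 is known to induce, 8 of them tested. Under IL-4 6 were called higher and 1 lower in WT, beside 38.6% of all genes higher. In cKO 8 were higher and 0 lower, beside 42.2%. The IL-4 libraries were deposited in a table with 51914 entries, where the other 2 tables have 52343, so treatment and whatever else differs between these deposits cannot be told apart.

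Between genotypes Acod1 was the gene called under all 3 treatments. In NT it was 2.02-fold lower in cKO than in WT (1.84 to 2.22). Under LPS it was 1.22-fold higher in cKO (1.21 to 1.23), and under IL-4 4.48-fold higher (4.37 to 4.60). The LPS difference is near the threshold, and Acod1 was not called with median ratio or TMM scaling, at 0.23 and 0.25 on the log2 scale against 0.29, while on TPM it was past 1.2-fold, at 0.37. The IL-4 difference is larger than that of 99.8% of 13245 genes and kept its call under every setting tried. The IL-4 response of Acod1 exceeded that of WT by 3.18 on the log2 scale in cKO (3.04 to 3.32), and the LPS response by 1.30 (1.17 to 1.44). Both of these differences include the lower NT level in cKO. Where a biological coefficient of variation of 0.2 between replicates was assumed in edgeR, the IL-4 difference of Acod1 was the 1 call left among the 8 genes between the genotypes. The share of all genes called by that rule was not counted.

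The differences between cKO and WT in the responses of the other 7 genes were smaller than those of Acod1, and most depend on the unit. They are given on the log2 scale from CPM, with limits for counting error, and then from TPM, an alternative chosen after the data were seen, which gave 1.67 for Acod1 under LPS and 3.43 under IL-4. Under LPS Acly (0.44, 0.34 to 0.53, and 0.74 on TPM), Ogdh (0.30, 0.18 to 0.41, and 0.64) and Idh1 (0.20, 0.02 to 0.39, and 0.51) were above 0 on both. Idh2 was below 0 on both, at -0.66 (-1.05 to -0.26) and -0.30. Slc25a1 went from -0.43 (-0.57 to -0.29) to -0.03 on TPM, Idh3a from -0.30 (-0.65 to 0.05) to -0.09, and Cs turned from -0.18 to 0.16. Under IL-4 Acly (0.35, 0.27 to 0.44, and 0.59 on TPM) and Ogdh (0.26, 0.18 to 0.35, and 0.49) were again above 0. Idh1 went from -0.38 (-0.49 to -0.27) to -0.15 on TPM, Idh2 from -0.36 (-0.51 to -0.21) to -0.16 and Slc25a1 from -0.17 to -0.08. Cs turned from -0.19 to 0.04 and Idh3a from -0.04 to 0.22.

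In NT 2 of the 8 genes were called higher in cKO and 2 lower, where 21.7% of 12463 genes were called higher and 25.9% lower. Idh2 was 1.29-fold higher (1.21 to 1.37) and Idh3a 1.22-fold higher (1.13 to 1.33), while Acly was 1.26-fold lower (1.204 to 1.31) beside Acod1. TPM gave another picture of the NT pair: with it 0 of the 8 were past 1.2-fold higher and 4 were past 1.2-fold lower, Acod1, Idh1, Ogdh and Acly. The median log2 fold change of all genes was -0.01 on counts and -0.20 on TPM, and the share of calls that were higher was 45.5% and 22.04%. Of the 8 macrophage markers, 2 were higher and 5 lower in the cKO NT library, with a median log2 fold change of -0.45 (Mertk -1.27, Cd14 1.01), and their part in these differences was not tested. The NT differences of Idh2, Idh3a, Idh1 and Ogdh thus depend on the unit, while those of Acod1 and Acly do not. Of the 16 other citrate cycle genes, 6 were higher and 0 lower on counts (Idh3g 1.58-fold, 1.47 to 1.68, and Fh1 1.52-fold, 1.40 to 1.66), and 3 higher and 3 lower on TPM.

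Under LPS 1 of the 8 genes was called between the genotypes, Acod1, where 17.1% of 12386 genes were called higher and 8.76% lower. For Cs the cKO to WT ratio was 0.989 (0.942 to 1.04), for Idh1 0.996 (0.884 to 1.12) and for Idh3a 0.994 (0.786 to 1.26). Idh2 had 125 counts in WT and 96 in cKO, and its limits of 0.619 to 1.07 do not exclude a difference of 1.2-fold. Of the 16 other citrate cycle genes 0 were called, and 1 was called lower with median ratio or TMM scaling. The share of all calls that were higher was 66.1%, and 52.9% with median ratio scaling.

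Under IL-4 2 of the 8 genes were called, where 13.8% of 13245 genes were called higher and 10.5% lower. Besides Acod1, Idh1 was 1.51-fold lower in cKO (1.43 to 1.59), at 82.4 CPM against 124.2 CPM in WT, and it kept this on TPM. The other 6 lay between a ratio of 0.986 for Cs and 1.19 for Idh3a. Of the 16 other citrate cycle genes 0 were called on counts. Of 11 carriers and genes of glutamate entry 3 were higher and 3 lower, and Slc25a10 was 1.47-fold higher (1.41 to 1.53). Abcg2, an itaconate exporter, had a log2 fold change of -0.84. The neutrophil markers were also higher in the cKO library (5 of 8 tested, 0 lower, median log2 fold change 0.31), and their part in the Acod1 difference was not tested. Of 9 genes that LPS or IL-4 is known to induce, 5 were higher and 2 lower in cKO under IL-4. Nos2, at 1.23 and 7.16 CPM, had the highest log2 fold change (1.87) and Retnla, at 2.99 and 0.191 CPM, the lowest (-1.75).

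**Figure D4:**
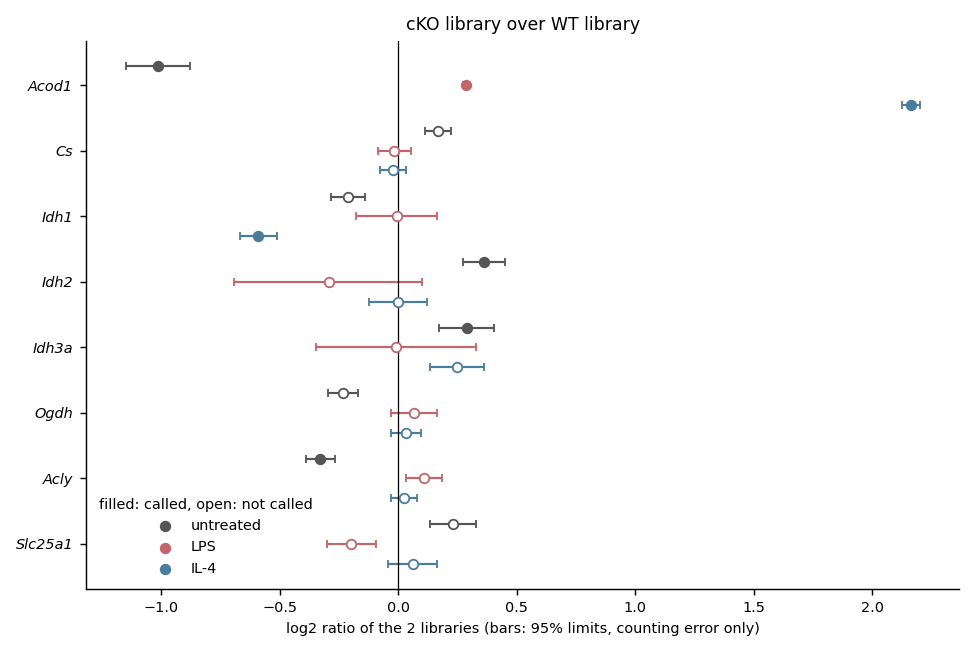
Log2 ratio of the cKO to the WT BMDM library (x axis) for the 8 genes (y axis) in untreated, LPS and IL-4 cells, with 95% limits for counting error; filled points were called and open points were not. Acod1 lies left of 0 in untreated cells (2.02-fold lower) and right of 0 under LPS (1.22-fold) and IL-4 (4.48-fold higher), while Idh1 under IL-4 is the other filled point in treated cells.

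A 2-fold threshold leaves the largest of these differences. For LPS over NT it called 5 of the 8 genes in WT (Acod1 higher, Idh1, Idh2, Idh3a and Ogdh lower), beside 43.3% of all genes, and the same 5 in cKO, beside 46.0%. For IL-4 over NT it called Acod1 in WT, beside 16.2% of all genes, and Acod1 and Idh2 in cKO, beside 21.1%. Between genotypes it called Acod1 under IL-4, beside 1.97% of all genes, and 0 of the 8 in NT and under LPS, beside 3.83% and 0.904%. Acod1 in NT, 2.02-fold lower in cKO, missed it because 1 CPM is added before the call, which gives a log2 fold change of -0.99.

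Across the 6 BMDM libraries the patterns of Cs, Idh1, Idh2, Idh3a, Ogdh and Acly resembled each other, with Pearson's r of log2 CPM from 0.856 to 0.994, and ran opposite to Acod1, with r from -0.931 to -0.722. Slc25a1 was unlike them, with r from -0.232 to 0.209. These values describe 6 points dominated by the 2 LPS libraries, and all genes share those libraries. The 5 genes most like Acod1 were Dcbld2, Tbc1d10b, Socs3, Ppfia3 and Slco3a1, with r from 0.994 to 0.995. For Idh2 they were Spcs2, Camk1 and Car9, for Idh3a Elac2, Wdr12 and Fam45a, for Cs Txn2, Selenon and Etfb, and for Idh1 Got1, Snx5 and Wdr41. Ogdh was nearest to Hccs, Cd84 and Dock1, and Acly to Gabpb1, Ate1 and Zfp758. For Slc25a1 they were Sspn, CT010467.1 and Atp6v0c, with r of at most 0.987.

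In Raw264.7 cells the deposited values, except that of Zmynd8 in Zmynd8 KO, are whole reads multiplied by a factor for each library and table. A gene is called at 1.2-fold alone. Putting the D/E-to-A mutant instead of WT Zmynd8 into Zmynd8 KO cells went with more RNA of 6 of the 8 genes and less of 1, where 36.7% of 12769 genes were called higher and 35.9% lower. Acod1 was read 58349 times with WT Zmynd8 and 97034 times with D/E-A, a ratio of deposited values of 1.74 (1.72 to 1.76). Cs was 1.76-fold higher (1.63 to 1.90), Acly 1.41-fold (1.31 to 1.51), Ogdh 1.35-fold (1.25 to 1.45), Idh1 1.31-fold (1.14 to 1.52) and Idh3a 1.26-fold (1.05 to 1.51). Slc25a1 was 1.26-fold lower (1.15 to 1.39), and Idh2 had a ratio of 1.10 (0.929 to 1.31) and was not called. Of the 16 other citrate cycle genes 6 were higher and 1 lower.

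The Zmynd8 KO library, set against the same WT Zmynd8 library, had 4 of the 8 genes higher and 0 lower, where 34.7% of 14483 genes were called higher and 28.3% lower. Cs was 1.67-fold higher (1.55 to 1.79), Acod1 1.36-fold (1.35 to 1.37), Acly 1.35-fold (1.26 to 1.45) and Idh3a 1.30-fold (1.09 to 1.55). Idh2 lay at the threshold with a ratio of 1.2004 (1.02 to 1.42) and was called only with a pseudocount of 0.1. Of the 16 other citrate cycle genes 10 were higher and 0 lower. Both comparisons share the WT Zmynd8 library, so they are not independent. In that library the neutrophil markers summed to 10423 RPM, against 6996 in Zmynd8 KO and 4439 with D/E-A, and the 8 macrophage markers to 4978, against 6388 and 9447. All 9 neutrophil markers were lower and 7 of 8 macrophage markers higher with D/E-A. With WT Zmynd8, in Zmynd8 KO and with D/E-A, the B cell markers summed to 129, 102 and 147 RPM. In the same order the T cell markers summed to 4.84, 0.238 and 3.85 RPM and the dendritic cell markers to 160, 126 and 89.5 RPM. The part of these markers in the values of the 8 genes was not tested, and fewer cells of a type and less RNA per cell cannot be told apart in bulk samples. The ribosomal RNA gene Rn18s-rs5 took 137355 RPM with WT Zmynd8, 111354 in Zmynd8 KO and 65040 with D/E-A.

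In LPS-treated p65 lines Acod1 was highest with K122R. It was read 54120 times with WT p65, 108712 times with K122R and 41235 times in p65 KO. The ratio of deposited values was 2.09 for K122R over WT p65 (2.07 to 2.11), and p65 KO was 1.27-fold lower than WT p65 (1.25 to 1.28). The K122R library also held 5094 RPM of Rn18s-rs5, against 1792 with WT p65 and 2051 in p65 KO, 64.2 RPM of Zmynd8, against 117 and 107, and 351 RPM of Rela, against 102 and 50.6, and their part was not tested. With K122R 1 of the 8 genes was called higher and 2 lower, where 26.4% of 13459 genes were called higher and 28.6% lower. Idh2 and Idh3a were both 1.38-fold lower, with limits of 1.25 to 1.52 and 1.29 to 1.46. With library totals in place of the authors' scaling, the share of calls that were higher went from 48.0% to 29.8%, and the 1.2-fold calls of the 8 genes did not change. Cs, Ogdh, Acly and Slc25a1 had ratios from 0.965 to 1.04, and Idh1 had a ratio of 1.18 and was not called. The 5 tested genes of itaconate breakdown and transport included 0 higher and 3 lower, among them Slc13a3 with 32 reads and 6 reads.

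In p65 KO 1 of the 8 genes was called higher and 1 lower, where 19.3% of 13451 genes were called higher and 19.4% lower. Besides Acod1, Idh1 was 1.59-fold higher (1.36 to 1.86), at 417 reads against 271 reads with WT p65. The other 6 had ratios from 0.914 to 1.08. Of the 16 other citrate cycle genes 1 was higher and 0 lower. Both comparisons share the WT p65 library, whose column is headed as LPS-treated WT cells while its sample is labelled p65 KO with WT p65. With a 2-fold threshold Acod1 was called for K122R, beside 9.54% of all genes, and 0 of the 8 for p65 KO, D/E-A and Zmynd8 KO, beside 4.39%, 18.4% and 11.0%. By library totals Acod1 stood at 6528 RPM with K122R and 3455 RPM with WT p65, under 2-fold, so that call is lost there.

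**Figure D5:**
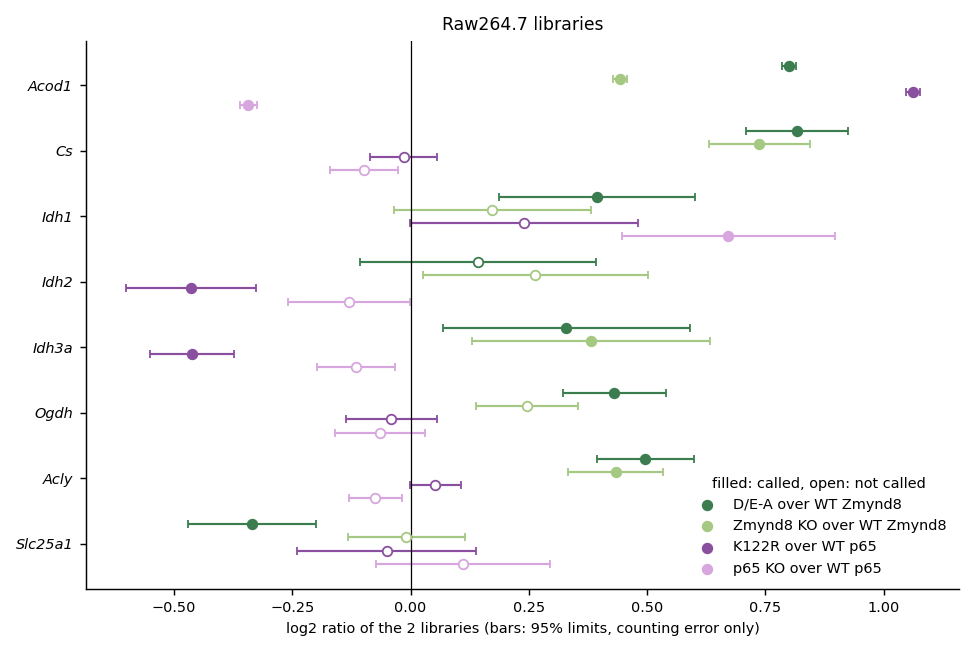
Log2 ratio of deposited values (x axis) for the 8 genes (y axis) in 4 comparisons of Raw264.7 libraries, with 95% limits from the recovered reads that cover counting error only; filled points were called and open points were not. The widest spread is that of Acod1, from 1.27-fold lower in p65 KO to 2.09-fold higher with K122R, and the D/E-A points lie right of 0 for all genes but Slc25a1.

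The 2 families of Raw264.7 lines, compared by RPM of their own totals and with no test, had ranges that did not overlap for 6 of the 8 genes, where 74.6% of all 12080 genes with a mean of at least 10 reads had such ranges, so the count says nothing particular of the 8. Idh3a stood at 12.3 to 15.2 RPM in the Zmynd8 lines and at 105.4 to 160.4 in the p65 lines. Idh2 stood at 14.2 to 16.3 and 44.1 to 67.3, Acly at 73.8 to 102 and 328.6 to 350.0, Cs at 60.4 to 104.2 and 188.6 to 210.5, and Ogdh at 66.7 to 88.1 and 104.1 to 118.2. Slc25a1 went the other way, at 43.9 to 56.5 and 26.8 to 33.1. Idh1 overlapped, at 18.8 to 24.2 and 17.3 to 27.6 RPM, and so did Acod1, at 3172 to 5412 and 2726 to 6528 RPM. The families also differed in Xist and in neutrophil and B cell markers, as given above, so line and cell content cannot be told apart.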

How the data were processed

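RNA of 12 libraries was analysed: 6 of BMDMs and 6 of Raw264.7 cells. The other 35 samples of the series were not analysed here. Per the methods, polyadenylated RNA was sequenced and reads were mapped with TopHat to the mm10 transcriptome. The methods name Cuffdiff for differential expression, and which tool counted the reads is not given in the sources used here. For BMDMs the authors deposited estimated counts and TPM per gene, one table per treatment. For Raw264.7 cells the deposited signal values, one table per pair of libraries, are whole reads (within 0.01) times a factor for each library, and the reads were recovered from them. The exception is the value of Zmynd8 in the Zmynd8 KO library. Columns with the authors' log2 fold changes and p-values, and 2 columns of per-sample values that match no label, were not used. In the D/E-A table the WT Zmynd8 column omits genes with few reads.

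Estimated counts were rounded and divided by library totals (CPM). Fold changes are ratios of CPM or of deposited values, and log2 fold changes have 1 added to both. For the calls, genes needed a mean of at least 10, a fold change of at least 1.2 and, for BMDMs, an adjusted p (Benjamini-Hochberg, exact two-sided binomial test of the reads, over all genes) under 0.05. The planned count test was not used as such for Raw264.7 cells, since their values are not counts. Limits are exact (Clopper-Pearson) at 95%. Those of a difference between responses come from a normal approximation to the log of the counts, with nothing added. Tools were Python 3.11.15, SciPy 1.17.1 and edgeR 4.0.16, and the scripts were tested on simulated data.

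The 8 genes and the gene lists were chosen with earlier results of these data known. All 8 genes were named, and from each list the genes called with the highest and lowest log2 fold change. The genes most alike were ranked by Pearson's r of log2(CPM + 1) among the 9933 genes whose mean reached 100 counts. Alternatives were 2 other scalings, TPM, library totals, another pseudocount, other filters, a 2-fold threshold, reads tests and edgeR with an assumed spread.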

Additional observations from a re-analysis of the deposited data

Results flagged for a closer look

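The difference of Acod1 between cKO and WT BMDMs went in opposite directions with and without treatment. Its log2 fold change of cKO over WT was -0.99 in untreated cells and 0.29 under LPS, 1.28 apart. Under IL-4 it was 2.16, which is 3.15 above the untreated value. Each rests on 1 library per condition, so neither difference was tested across replicates. No group has enough samples to look for a sample that stands apart.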

How the results depend on the processing

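No paired analysis was possible because each condition has 1 library and no replicate numbers are shared, and no replicate could be left out. Of the fold changes of the 8 genes recomputed under the alternatives, 668 kept their direction and call, 14 gained a call, 61 lost one and 17 changed sign. Among the 668 are 88 values without a filter and 56 and 32 with a higher one. These could hardly change, as all 8 genes pass every filter tried. For LPS in cKO, Acly turned to 0.14 with median ratio and 0.12 with TMM scaling, and Slc25a1 to 0.21, 0.19 and, on TPM, 0.0080 (log2). On TPM, cKO over WT turned for Cs (-0.090) and Slc25a1 (-0.053) in untreated cells, Cs (0.067) and Idh1 (0.063) under LPS, and Ogdh (-0.0078) and Slc25a1 (-0.14) under IL-4, and the IL-4 response in cKO turned for Idh3a (0.13) and Ogdh (0.25). With TMM scaling that response turned for Acly (-0.021), and K122R turned for Cs (0.0058). With library totals, with or without the reads test, K122R turned for Acly (-0.091). With a 2-fold threshold the number of the 8 genes called became 0 for cKO over WT in untreated and LPS cells, 1 under IL-4, 5 for LPS in cKO, 1 and 2 for IL-4 in WT and cKO, 0 for D/E-A, Zmynd8 KO and p65 KO, and 1 for K122R. With edgeR at an assumed coefficient of variation of 0.2 it became 0, 0 and 1 for cKO over WT in untreated, LPS and IL-4 cells, 5 for LPS in cKO, and 1 and 2 for IL-4 in WT and cKO. With median ratio or TMM scaling it became 0 for cKO over WT under LPS, 5 for LPS in cKO and 6 for IL-4 in WT. A stricter threshold calls fewer genes by its construction, and the cause of the other changes was not tested. Over all genes, cKO over WT in untreated cells had 2701 calls higher and 3233 lower, and 1552 and 5491 on TPM. LPS in WT had 2641 higher and 7833 lower, and 4454 and 5136 with median ratio scaling, and K122R had 3552 and 3843, and 2131 and 5024 with library totals. Counting error is widest for Idh2 and Idh3a under LPS, with 96 to 154 counts, and the spread between animals or cultures is not measured.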
